A study of Homo sapiens with 6 samples.

Results

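Translation initiation and elongation factors are the proteins that load ribosomes onto mRNAs and move them along the coding sequence. The crosslinking of IGF2BP3, a cytosolic RNA-binding protein, to the mRNAs that encode these factors is described here. The genes were taken from GENCODE release 44 as every protein-coding gene whose symbol starts with EIF1 to EIF6, EEF1 or EEF2, which gave 71 of 20046 genes. This pattern also takes in regulators of the factors (the eIF2 kinases, the eIF4E-binding proteins and the methyltransferases that modify elongation factors) and 2 readthrough loci, *EEF1E1-BLOC1S5* and *EEF1AKMT4-ECE2*. A cluster was assigned to a gene when it shared at least 1 nt with an exon on the same strand.

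The data came from infrared PAR-CLIP of endogenous IGF2BP3 in HCT116, a human colorectal carcinoma line that here carried the Tet-OsTIR1-PURO genotype in every sample. All cells received 100 µM 4-thiouridine (4sU) for 15 h and UV light at 365 nm, which crosslinks 4sU-labeled RNA to bound protein. The 5 IGF2BP3 libraries differed in the RNase and in its concentration in lysate and on beads, and 1 control library was made with IgG and RNase I at 0.1 and 0.025 U/µL. The IGF2BP3 libraries are named by enzyme and the 2 concentrations in U/µL, and values are always given in the order RNase I 0.05/0.05, RNase I 0.1/0.025, RNase I 0.05/0.025, RNase T1 1/1 and RNase T1 0.25/0.25. Per the study's methods the antibody partially recognizes the paralog IGF2BP2, so a cluster may come from either protein.

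Each condition had 1 library, so no difference between libraries has a replicate check and no p-value is given. The libraries held 2362467, 803490, 670712, 1157194 and 182448 reads in called clusters, and the IgG library held 324 reads in 25 clusters. Levels are given in CPM, the reads of a cluster or gene scaled to 1000000 cluster reads of that library. A target call required a cluster on the gene's exons that exceeded 10 CPM and also exceeded 0.5 events of T-to-C conversion for each read. In RNase T1 0.25/0.25 a level of 10 CPM is 1.82 reads, below the smallest listed cluster of 2 reads, so only the conversion criterion acted there. Intervals are 95% and exact and cover counting error only. The files list called clusters only, so a gene without a cluster has no measured level in that library. No RNA level was measured, and more IGF2BP3 per mRNA and more mRNA cannot be told apart.

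Initiation in human cells starts when eIF2 brings the initiator tRNA to the small ribosomal subunit, with eIF1, eIF1A, eIF3 and eIF5 bound, and when the eIF4F complex (the cap-binding eIF4E, the scaffold eIF4G and the helicase eIF4A) recruits the mRNA. Phosphorylation of eIF2 by its kinases blocks its recharging by the exchange factor eIF2B, and the eIF4E-binding proteins compete with eIF4G for eIF4E. In elongation, eEF1A delivers aminoacyl-tRNA, the eEF1B complex reloads it with GTP, and eEF2 drives translocation. IGF2BP3 is known mainly for stabilizing mRNAs through sites in their 3′UTRs.

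To show the RNA that carried the signal, 30 nt that hold the mode location of the cluster with the most reads are printed for 6 of the most highly crosslinked factor mRNAs and for *EIF2AK2*, first in RNase I 0.05/0.05 and then in RNase T1 1/1. The window was centered on the mode and shifted to stay within the cluster where the mode lay near an edge, so that in the *EIF5* and *EIF2S3* RNase T1 windows the mode is the first base. The sequences are written 5′ to 3′ on the mRNA strand with T for U, coordinates are hg38, and capitals mark CATT or CAGT (CAUU or CAGU in RNA), tetramers associated with this protein family.
*EEF2* RNase I, chr19:3976628-3976657, minus strand, exon 15, coding: tcgacaacagcagccgccccagccaggtgg
*EEF2* RNase T1, chr19:3976498-3976527, minus strand, 3′UTR: cccggggactcgcagcacccacagcaccac
*EIF4G2* RNase I, chr11:10797299-10797328, minus strand, 3′UTR: gtaatgggctttatgtgctagattttaata
*EIF4G2* RNase T1, chr11:10800184-10800213, minus strand, exon 18, coding: gaaagtggcaccCATTttcctctcttccta
*EIF5* RNase I, chr14:103342715-103342744, plus strand, 3′UTR: tcgggtgcaagtggagcaggagccatatac
*EIF5* RNase T1, chr14:103343009-103343038, plus strand, 3′UTR: gttCAGTctggtgccaaacttcgaatggaa
*EIF4E* RNase I, chr4:98880803-98880832, minus strand, 3′UTR: tagagtttccactatcccaatcaaagaatt
*EIF4E* RNase T1, chr4:98880676-98880705, minus strand, 3′UTR: caatagtcagaaaacaacttggCATTtcta
*EIF2S3* RNase I, chrX:24077370-24077399, plus strand, 3′UTR: tcataCAGTttgaaatgaaactttgccaca
*EIF2S3* RNase T1, chrX:24077023-24077052, plus strand, 3′UTR: gttaaaCATTcccacataatgtcaaaatta
*EEF1G* RNase I, chr11:62572700-62572729, minus strand, exon 2, coding: atcctgaaaactggagggccttcaaggctc
*EEF1G* RNase T1, chr11:62572635-62572664, minus strand, exon 2, coding: gtgctctccgcaccaccccacttcCATTtt
*EIF2AK2* RNase I and RNase T1, chr2:37100088-37100117, minus strand, 3′UTR: tataattcacatgccatacaattcacctat

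In none of the first 6 mRNAs did the windows of both enzymes overlap, although for *EEF2*, *EIF5*, *EIF4E* and *EEF1G* both lay within the main RNase I cluster. The *EIF2AK2* window, far down a 3′UTR of 8066 nt, is shown because both enzymes gave the same 30 nt there. Among the 12 most highly crosslinked factor mRNAs off chromosome 8, 1 of 12 RNase I 0.05/0.05 windows and 6 of 12 RNase T1 1/1 windows held CAUU or CAGU. The first 6 printed mRNAs come from these 12 but are not the 6 highest. In RNase T1 1/1 the unprinted windows of *EIF4H*, *EIF1*, *EEF1A1*, *EIF3L* and *EIF1AX* held neither tetramer, and that of *EIF4EBP2* held CAUU. The printed windows thus overstate how often an RNase T1 window held one. Over all clusters on protein-coding exons, the windows held either tetramer in 31.1% (RNase I 0.05/0.05) and 34.0% (RNase T1 1/1) of cases. Over all factor clusters these shares were 27.8% and 31.0%. They cover clusters of any size, whereas the 12 windows come from the cluster with the most reads of each gene, so the counts of 12 show neither enrichment nor depletion.

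The factor mRNAs were crosslinked as a group more often than protein-coding genes at large, and the gap was smaller among genes with clusters. Of the 71 genes, 40, 43, 45, 38 and 34 were called targets, against 21.9%, 21.3%, 22.0%, 19.6% and 13.7% of all protein-coding genes, and these counts are 56.3%, 60.6%, 63.4%, 53.5% and 47.9% of the factors. In all 5 libraries 32 were targets (45.1%), where the share over all genes was 9.91%, and 49 were targets in at least 1 (69.0% against 29.5%). Without RNase T1 0.25/0.25, the shallowest library, 35 factors and 13.2% of all genes were targets in every remaining library. Clusters lay on 62 factors in any library (87.3% against 46.7% of all genes) and on 37 in all 5 (52.1% against 15.8%). The 9 without any were *EEF1AKMT1*, *EEF1AKMT4-ECE2*, *EEF1D*, *EIF1AY*, *EIF2B3*, *EIF2B4*, *EIF4E1B*, *EIF4EBP3* and *EIF4ENIF1*. Of the 62 with clusters, 13 had no target call, where 36.7% of all genes with clusters had none. Among factors with clusters in the library at hand, 65.6%, 81.1%, 90%, 73.1% and 89.5% were targets. Over all protein-coding genes with clusters there, these shares were 50.1%, 66.5%, 72.6%, 52.2% and 82%. No IgG cluster lay on a factor, but with 324 reads that library is too small to set a background level.

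The factor clusters, each counted once, held 34428, 13305, 11905, 13389 and 3342 reads, which is 1.46%, 1.66%, 1.77%, 1.16% and 1.83% of all cluster reads. *EEF2* and its kinase gene together made up 20.0% to 24.6% of the summed CPM, nearly all of it from *EEF2*, and the eIF4F group 23.5% to 28.9%.

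**Figure D1:**
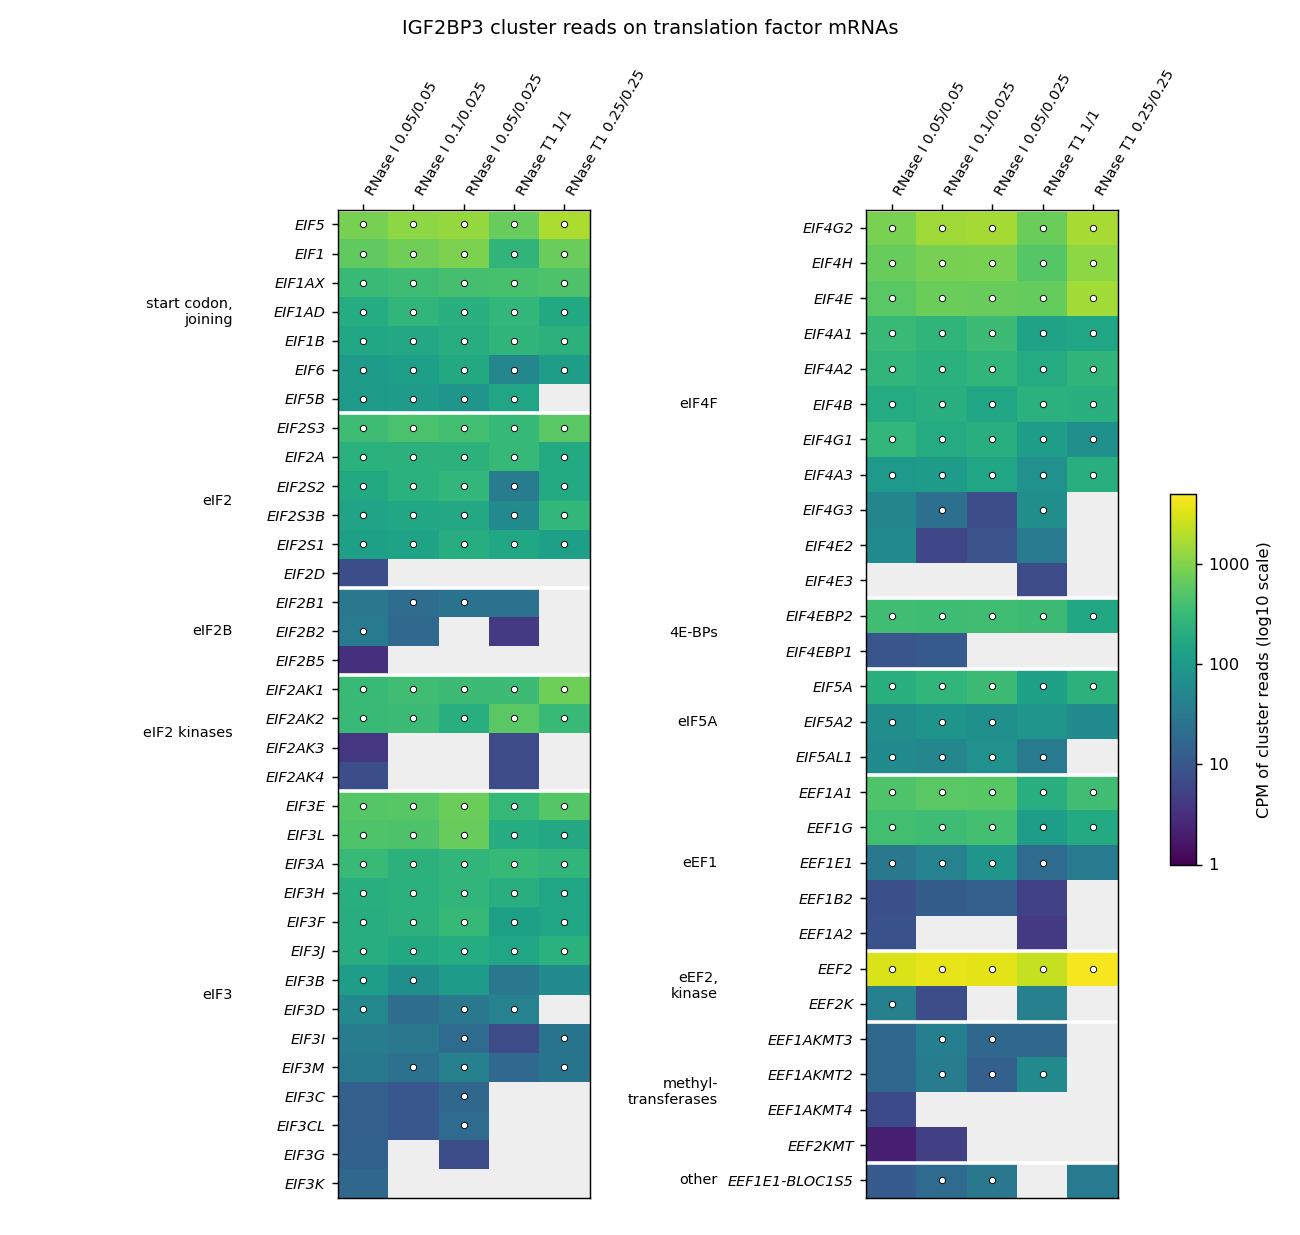
Cluster reads of the 62 translation factor genes with any cluster (rows, grouped by role and ordered by median CPM) in the 5 IGF2BP3 libraries (columns). Color gives CPM on a log10 scale, gray means no called cluster, and white points mark target calls; *EEF2* is the brightest row, with 2389 to 4511 CPM, and the eIF2B rows are among the darkest.

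*EEF2*, the translocase of elongation, was the most highly crosslinked factor mRNA in every library. It had 7197, 2895, 2388, 2764 and 823 reads in 17, 21, 18, 19 and 10 clusters, or 3046, 3603, 3560, 2389 and 4511 CPM. Among all protein-coding genes this placed it 9th, 10th, 12th, 10th and 15th by CPM. Its median per kb of canonical transcript, 1127 CPM, was the 9th highest of all genes, so it ranked as high per length as by CPM. *EEF2K*, which encodes the kinase that inhibits eEF2, stood far lower, at 40.2, 7.5, 0, 40.6 and 0 CPM, and was a target in RNase I 0.05/0.05 only.

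A single region made up most of the *EEF2* signal. The cluster with the most reads crossed the stop codon in every library and held 76.6%, 77.3%, 82.0%, 82.6% and 71.0% of the gene's reads. It ran from 187 nt before to 499 nt after the last coding nucleotide in RNase I 0.05/0.05 (687 nt, 5516 reads) and from 42 nt before to 353 nt after it in RNase T1 1/1 (396 nt, 2282 reads). The *EEF2* 3′UTR is 501 nt long, and clusters covered 99.6%, 98.6%, 98.0%, 87.2% and 86.8% of it. The main RNase I clusters held 3 CAUU and 2 CAGU in 687 nt, 2 and 1 in 421 nt, and 3 and 1 in 542 nt. The RNase T1 1/1 cluster held 2 CAUU and 0 CAGU, and the RNase T1 0.25/0.25 cluster of 277 nt held 0 of either.

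Of the elongation factor eEF1 genes, *EEF1A1* and *EEF1G* were targets in all 5 libraries. *EEF1A1*, which encodes the main carrier of aminoacyl-tRNA, had 484, 564, 556, 207 and 362 CPM. Its paralog *EEF1A2*, known for its expression in muscle and neurons, had clusters in only 2 libraries, where it had 20 reads (RNase I 0.05/0.05) and 5 reads (RNase T1 1/1). *EEF1G*, a subunit of the eEF1B exchange complex, had 381, 360, 395, 118 and 181 CPM. Levels of *EEF1A1* and *EEF1G* were thus lowest in the RNase T1 libraries. The other eEF1B subunits were low, with *EEF1B2* at 5.2 to 13.4 CPM in 4 libraries and *EEF1D* without a cluster. *EEF1E1*, a scaffold protein of the synthetase complex that is named as an elongation factor, had 30.1, 43.6, 85.0, 19.9 and 32.9 CPM and was a target in 4 libraries. The methyltransferases of elongation factors had 2 targets among 5 genes, *EEF1AKMT3* with 17.8, 39.8, 17.9, 17.3 and 0 CPM and *EEF1AKMT2* with 17.4, 36.1, 13.4, 58.8 and 0 CPM.

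The eIF4F group and its cofactors held 8 genes that were targets in all 5 libraries of 12. *EIF4G2*, which encodes a relative of eIF4G that lacks the eIF4E-binding part, had 908, 1484, 1589, 749 and 1639 CPM. The classical scaffolds stood lower, *EIF4G1* at 284, 188, 215, 115 and 71.3 CPM and *EIF4G3* at 49.1, 22.4, 7.5, 68.3 and 0 CPM. In every library the 95% intervals of *EIF4G2* and *EIF4G1* were apart, and per kb the medians were 391 and 34.8 CPM.

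*EIF4H*, a cofactor of the eIF4A helicase, had 687, 875, 912, 522 and 1195 CPM. *EIF4E*, the cap-binding protein, had 562, 734, 701, 665 and 1551 CPM. Of the helicase paralogs, *EIF4A1* had 315, 265, 338, 135 and 153 CPM and *EIF4A2* 269, 233, 274, 187 and 263 CPM. *EIF4A1* was the higher in RNase I and *EIF4A2* in RNase T1, with intervals apart in RNase I 0.05/0.05 (293 to 338 and 249 to 291 CPM) and RNase T1 1/1 (114 to 158 and 163 to 213 CPM) and overlapping in the other libraries. The order was the same per kb. Pseudogenes of *EIF4A1* held 451 reads in RNase I 0.05/0.05, beside 744 on the gene, and 24 beside 156 in RNase T1 1/1. For *EIF4A2* these were 257 beside 636 and 39 beside 216. The intervals do not cover how reads were placed among such copies. *EIF4E* differed from the other cap-binding genes: *EIF4E2* had 61.4 CPM at most and no target call, *EIF4E3* had 8 reads in 1 library and *EIF4E1B* had none.

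Among the eIF4E-binding proteins, repressors of eIF4E, a single gene stood out. *EIF4EBP2* had 366, 360, 364, 349 and 164 CPM and was a target in all 5 libraries. *EIF4EBP1* had clusters in RNase I 0.05/0.05 (22 reads) and RNase I 0.1/0.025 (9 reads) and in no other library. The canonical *EIF4EBP2* transcript is 7491 nt long against 827 nt for *EIF4EBP1*, so both were compared per kb in the 2 libraries where *EIF4EBP1* had clusters. There *EIF4EBP2* had 48.8 and 48.0 CPM per kb and *EIF4EBP1* 11.3 and 13.5, a much smaller gap than in CPM.

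The genes of start codon selection and subunit joining were called in most libraries: 7, 7, 7, 7 and 6 of 8. *EIF5*, the GTPase-activating protein of eIF2, led with 874, 1175, 1308, 694 and 1743 CPM. *EIF1*, which enforces start codon fidelity, had 636, 794, 923, 262 and 713 CPM, lowest in RNase T1 1/1. Its paralog *EIF1B* had 166, 169, 204, 265 and 236 CPM, close to *EIF1* in RNase T1 1/1 only, where the intervals were 233 to 293 CPM for *EIF1* and 236 to 297 CPM for *EIF1B*. Its canonical transcript is shorter (987 against 2338 nt), and per kb *EIF1* had 272, 340, 395, 112 and 305 CPM and *EIF1B* 168, 171, 207, 269 and 239 CPM, so that *EIF1B* was the higher in RNase T1 1/1. *EIF1AX*, which works with eIF1 in scanning, had 325, 358, 404, 417 and 460 CPM. *EIF1AD*, which encodes an eIF1A-domain protein, had 192, 273, 224, 283 and 175 CPM.

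The eIF2 group held the subunit genes *EIF2S1*, *EIF2S2* and *EIF2S3*, the copy *EIF2S3B*, and the related genes *EIF2A* and *EIF2D*. All but *EIF2D*, 5 of 6 genes, were targets in all 5 libraries. The call of *EIF2S3B* is not independent of *EIF2S3*, because 72.4% of its reads lay in clusters whose sequence *EIF2S3* also holds. *EIF2S3*, the tRNA-binding gamma subunit, had 351, 436, 385, 306 and 559 CPM. *EIF2S2*, the beta subunit, had 178, 228, 286, 37.2 and 181 CPM, with RNase T1 1/1 far below the rest, while *EIF2S1*, the alpha subunit, stayed between 121 and 204 CPM. The genes of the eIF2B exchange factor stood lower, with clusters on 3, 2, 1, 2 and 0 of 5 and no gene above 32.2 CPM. None was a target in all 5 libraries and 1, 1, 1, 0 and 0 were targets in each; *EIF2B1*, the highest by median, had 30.1, 21.2, 25.3, 24.2 and 0 CPM.

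The 4 eIF2 kinase genes fell into a high and a low pair. *EIF2AK1*, the heme-regulated kinase, had 306, 363, 344, 343 and 773 CPM, and *EIF2AK2*, the kinase activated by double-stranded RNA, had 307, 330, 206, 559 and 307 CPM. *EIF2AK3* and *EIF2AK4*, the kinases of endoplasmic reticulum stress and amino acid shortage, had 9 and 18 reads with RNase I 0.05/0.05, 8 reads each with RNase T1 1/1 and no cluster elsewhere. The 2 high genes were targets in all 5 libraries and the 2 low genes in none.

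All 14 eIF3 genes had clusters and 12 were a target at least once, but only 6 were targets in all 5 libraries (*EIF3E*, *EIF3L*, *EIF3A*, *EIF3H*, *EIF3F* and *EIF3J*). *EIF3E* had 538, 545, 738, 291 and 526 CPM and *EIF3L* 476, 469, 702, 197 and 170 CPM. *EIF3K* and *EIF3G* had no target call, with 42 and 33 reads in RNase I 0.05/0.05. Messages for subunits of the same complex thus ranged, within RNase T1 1/1, from no cluster to the 306 CPM of *EIF3A*, which encodes the largest subunit.

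*EIF5A*, whose product carries the modified amino acid hypusine, had 221, 276, 347, 130 and 241 CPM, and its paralog *EIF5A2* had 66.5, 82.1, 73.1, 89.0 and 60.3 CPM. Per kb the medians were 191 and 13.2 CPM.

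Some of these values cannot be assigned to 1 locus. Of the reads on *EIF2S3B*, a nearly identical copy of *EIF2S3*, 72.4% lay in clusters whose sequence also occurs in an *EIF2S3* transcript, as did 85.2% for *EIF5AL1* against *EIF5A* and 100% for *EIF3CL* against *EIF3C*. Of 155 annotated pseudogenes of the factors, 57, 34, 34, 30 and 14 had clusters, which together held 3589, 890, 1096, 781 and 179 reads. The 49 *EEF1A1* pseudogenes held 1035 reads in RNase I 0.05/0.05 beside 1143 on *EEF1A1* itself, and 75% of their reads over the 5 libraries lay in clusters identical to a stretch of an *EEF1A1* transcript. How reads with several matches were placed is not given in the sources used here. The 8 clusters shared by *EEF1E1* and *EEF1E1-BLOC1S5* count for both genes.

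Compared with other families of the translation machinery, the factors had a lower share of targets than the ribosomal proteins in RNase I and a similar one in RNase T1. Of 88 cytosolic ribosomal protein genes, 70, 66, 68, 41 and 44 were targets (79.5%, 75%, 77.3%, 46.6% and 50.0%), above the factors' share in the RNase I libraries and near it in RNase T1. In all 5 libraries 37.5% of ribosomal protein genes and 45.1% of the factors were targets. The aminoacyl-tRNA synthetases, which charge tRNAs, had 15, 12, 14, 14 and 6 targets of 37. A further list of 35 translation genes had 17, 16, 17, 19 and 13, and 12 of them were targets in all 5. On that list *PABPC1*, the poly(A)-binding protein, exceeded *EEF2* in 4 libraries with 4872, 7803, 8838, 2001 and 9197 CPM. *ETF1*, the release factor, had 491, 489, 573, 337 and 378 CPM.

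**Figure D2:**
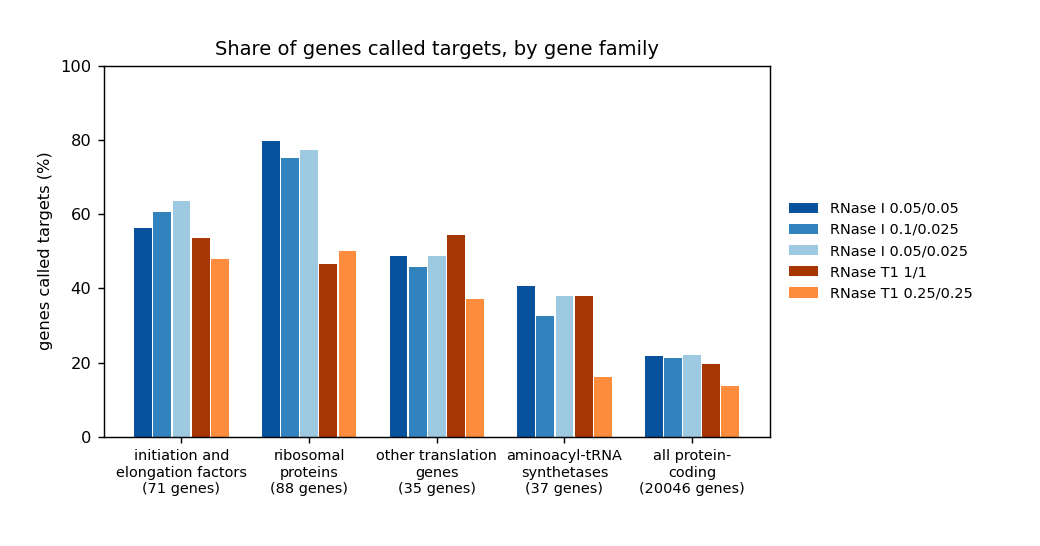
Percent of genes called targets (vertical axis) for 4 families of the translation machinery and for all protein-coding genes, with 1 bar per IGF2BP3 library. The factors range from 47.9% to 63.4%, the ribosomal proteins from 46.6% to 79.5%, and all protein-coding genes from 13.7% to 22.0%.

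Most factor reads lay toward the 3′ ends of the mRNAs, but less exclusively so than for genes at large. When a cluster touching a 3′UTR of any transcript counted as 3′UTR, the share of factor reads there was 81.6%, 83.3%, 82.9%, 86.1% and 90.7%, against 86.1%, 88.0%, 87.1%, 90.7% and 91.3% over all protein-coding genes. With coding sequence counted before 3′UTR these shares were 45.5%, 48.5%, 48.6%, 60.2% and 60.2% against 68.6%, 74.8%, 72.2%, 85.5% and 84.1%. The first rule counts coding exons that are a 3′UTR in minor transcripts, and both assign a cluster across the stop codon to 1 side. On canonical transcripts alone the shares were 70.1%, 74.7%, 71.9%, 78.2% and 84.1% against 78.9%, 80.7%, 79.4%, 85.3% and 85.7%. The factors were below all genes in each library under each rule.

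Splitting the canonical transcript further, clusters that crossed the stop codon held 25.6%, 25.5%, 23.8%, 17.6% and 17.9% of factor reads, against 9.97%, 5.77%, 6.89%, 0.964% and 1.29% over all genes. In RNase I 0.05/0.05 *EEF2* supplied 62.6% of these reads, and in RNase T1 1/1 96.6%. Without it the shares were 12.1%, 11.2%, 9.26%, 0.762% and 0.594%, which is above all genes in the RNase I libraries and below them in RNase T1. Clusters within the coding sequence held 28.6%, 24.8%, 27.3%, 20.1% and 15.5% of factor reads against 18.7%, 17.1%, 18.5%, 11.8% and 12% over all genes, and 5′UTR clusters held under 1% in every library.

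**Figure D3:**
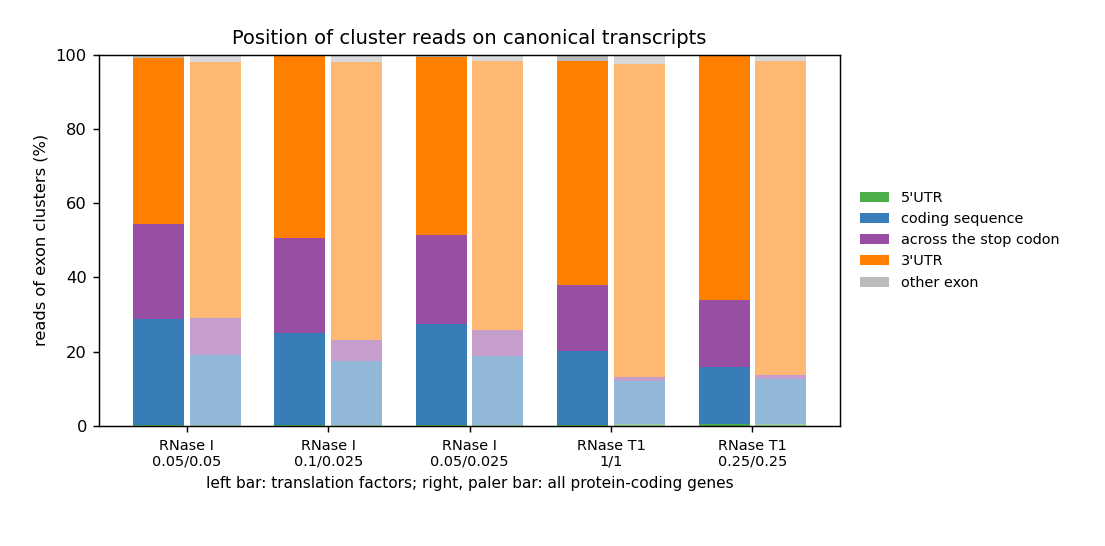
Percent of reads in exon clusters (vertical axis) by position on the canonical transcript for the factors (left bar of each pair) and all protein-coding genes (right, paler bar) in the 5 IGF2BP3 libraries. The segment across the stop codon is 17.6% to 25.6% for the factors and at most 9.97% for all genes, and the coding segment is larger for the factors in each library.

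Individual factors ranged from wholly coding to wholly 3′UTR. Of 39 factors with at least 100 reads in RNase I 0.05/0.05, 8 had over 50% of their reads in coding clusters and 12 had over 90% in clusters of the 3′UTR alone. Such counts were not made for all protein-coding genes, so they do not show a trait of the factors. *EIF4G1* (95.7% coding), *EEF1G* (91.1%), *EIF3E* (88.3%), *EIF3L* (75.4%) and *EIF4G2* (56.5%) were on the coding side. *EIF1AX* and *EIF1AD* (both 100%), *EIF4E* (99.1%), *EIF2AK2* (99.0%) and *EIF5A* (99.0%) were on the 3′UTR side. In RNase T1 1/1 *EIF4G1* and *EEF1G* again had most reads in coding clusters (100% and 92.6%).

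**Figure D4:**
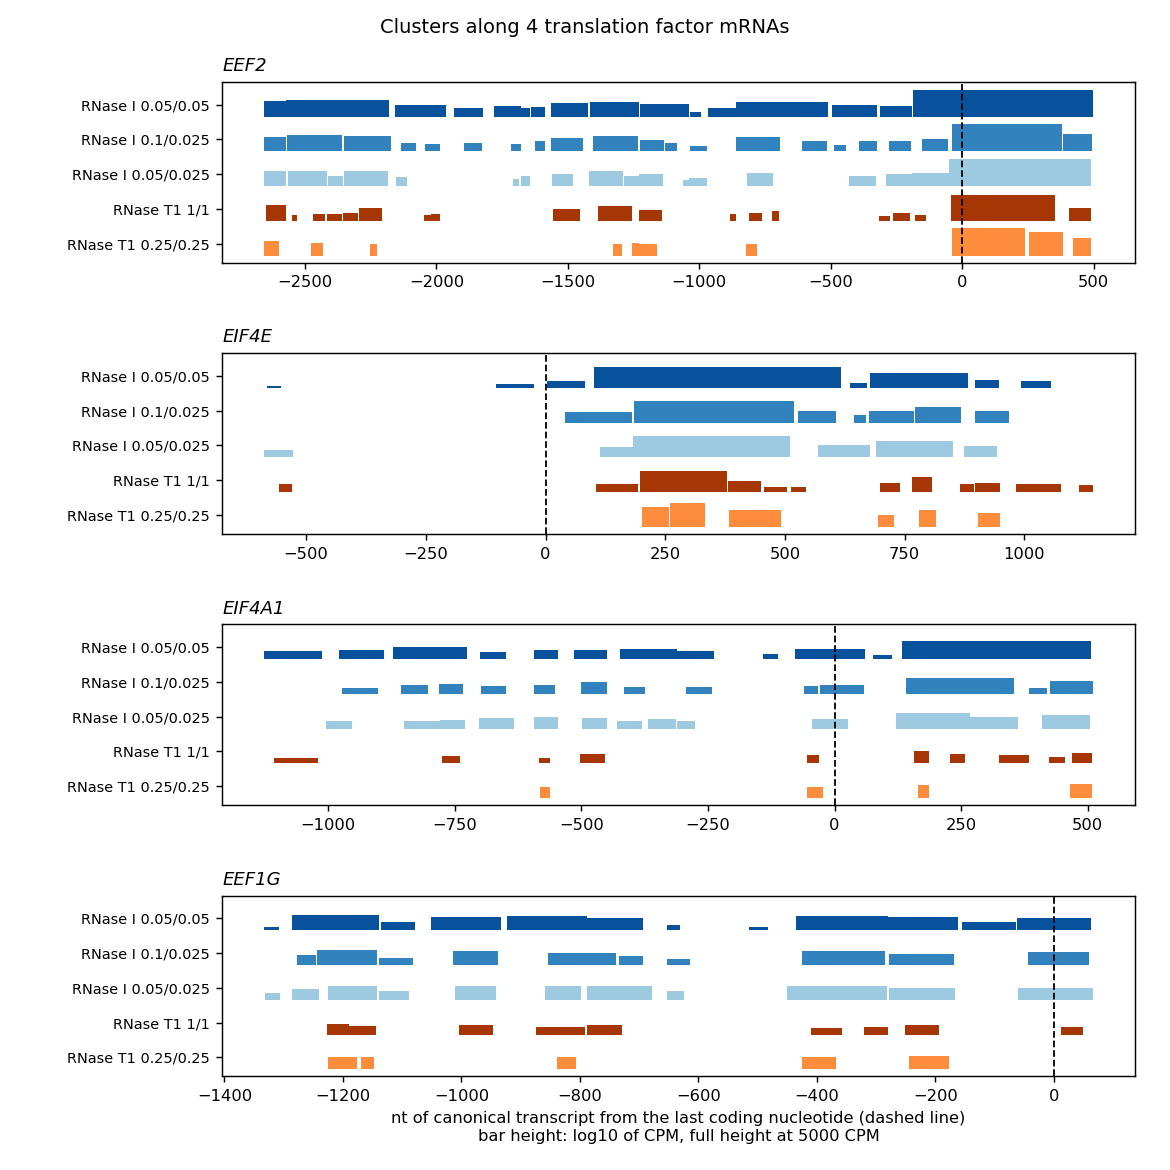
Called clusters along the canonical transcripts of 4 factor mRNAs; the horizontal axis is the distance in nt from the last coding nucleotide (dashed line), each row is 1 IGF2BP3 library, and bar height is log10 of the cluster's CPM. *EEF2* has its tallest cluster across the stop codon in all 5 libraries, *EIF4E* almost only 3′UTR clusters, *EIF4A1* both, and *EEF1G* mainly coding clusters.

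In *EIF4E* the main cluster lay wholly within the 3′UTR, 102 to 617 nt past the last coding nucleotide in RNase I 0.05/0.05 (1066 of 1328 reads) and 198 to 379 nt past it in RNase T1 1/1 (510 of 769 reads). It held 8 CAUU and 4 CAGU in the first and 2 of each in the second. Merged over the libraries, this stretch formed 1 site at chr4:98880064-98881028 with 551, 734, 693, 621 and 1551 CPM.

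The canonical 3′UTRs of the factors were covered more widely than those of other genes. Where a gene had a 3′UTR cluster, the median covered share was 42.7%, 22.8%, 24.4%, 14.3% and 9.52% for the factors and 23.3%, 13.2%, 12%, 7.80% and 4.73% for all protein-coding genes. RNase I 0.05/0.05 covered more than RNase T1 1/1 in 43 of 45 factors, much as it did in all genes (94.7%). Coverage depends on depth, on the reads of a gene and on cluster length. Median cluster length was 65, 58, 60, 38 and 40 nt on factors and 54, 53, 52, 33 and 37 nt over all clusters. Factors with clusters had a median of 113 CPM in RNase I 0.05/0.05 and 129 CPM in RNase T1 1/1. For all protein-coding genes with clusters these were 32.2 and 39.8 CPM. How far these differences, or 3′UTR length, shaped coverage was not tested.

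Overlapping clusters of all 5 libraries merged into 667 sites on the factors. Of these, 93 sites on 34 genes were present in all 5 libraries, and they held 73.1%, 80.3%, 80.5%, 76.0% and 96.6% of factor reads. A single library contributed 284 sites, of which 208 came from RNase I 0.05/0.05, the deepest. All 3 RNase I libraries but neither RNase T1 library had 53 sites, whereas 1 site was in both RNase T1 libraries and in no RNase I library. With 1 or both RNase T1 libraries and no RNase I library there were 47 sites. The count of 1 required a cluster in the shallowest library, and how far depth shaped these counts was not tested. No such counts over the sites of all genes are given here. Sites in all 5 libraries were longer, with a median of 195 nt against 63 nt for the rest. Such a site joins overlapping clusters of every library, so a greater length and a larger share of reads follow in part from the merging. When at least 0.5 of both clusters had to overlap in each library, 10 RNase I 0.05/0.05 clusters remained. *EEF1A1* and *EEF2* had the most shared sites, 7 each, followed by *EIF4G2* and *EIF1AX* with 6 each.

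The strongest shared site was the end of *EEF2* at chr19:3976058-3976746, with 2335, 2972, 2966, 2017 and 4231 CPM. The 3′UTR site of *EIF5* at chr14:103341621-103343189 was next by median with 651, 894, 987, 512 and 1524 CPM, although the *EIF4E* site given above was higher in both RNase T1 libraries. In *EEF2* a further site at the 5′ end, chr19:3985372-3985466, had 88.5, 73.4, 89.5, 89.9 and 76.7 CPM. A coding site at chr19:3984135-3984351 had 120, 119, 101, 19.9 and 38.4 CPM, so sites of the same mRNA differed in how far the RNase T1 libraries fell below the RNase I libraries.

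To see how the choice of RNase moved the factors, levels were compared within pairs of 1 RNase I and 1 RNase T1 library. RNase I cuts after any nucleotide, and RNase T1 after G. In the first pair, RNase I 0.05/0.05 over RNase T1 1/1, 56 factors had at least 20 reads and 50 of them had clusters in both libraries. Of these 50 the ratio was 2 or higher for 12, where 19.1% of all genes with clusters in both libraries were. It was 0.5 or lower for 1, *EEF1AKMT2*, where 16.5% of all genes were. Counting also genes with no RNase T1 cluster, which passed the read minimum through RNase I alone and have no measured ratio, 18 of 56 factors and 25.2% of all genes were called higher. The median ratio over 50 factors with clusters in both libraries was 1.27, and over all 6747 such genes 0.993.

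In the second pair, RNase I 0.05/0.025 over RNase T1 0.25/0.25, 37 of 40 factors had clusters in both libraries. Of these 37, 7 had a ratio of 2 or higher (18% over all genes) and 2 of 0.5 or lower (9.76%), with medians of 1.28 for the factors and 1.06 for all genes. With genes that had no RNase T1 cluster, 10 of 40 factors and 36.8% of all genes were called higher. The libraries of the first pair were recovered by electroelution and those of the second from crushed gel, and the concentrations also differed between the pairs.

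**Figure D5:**
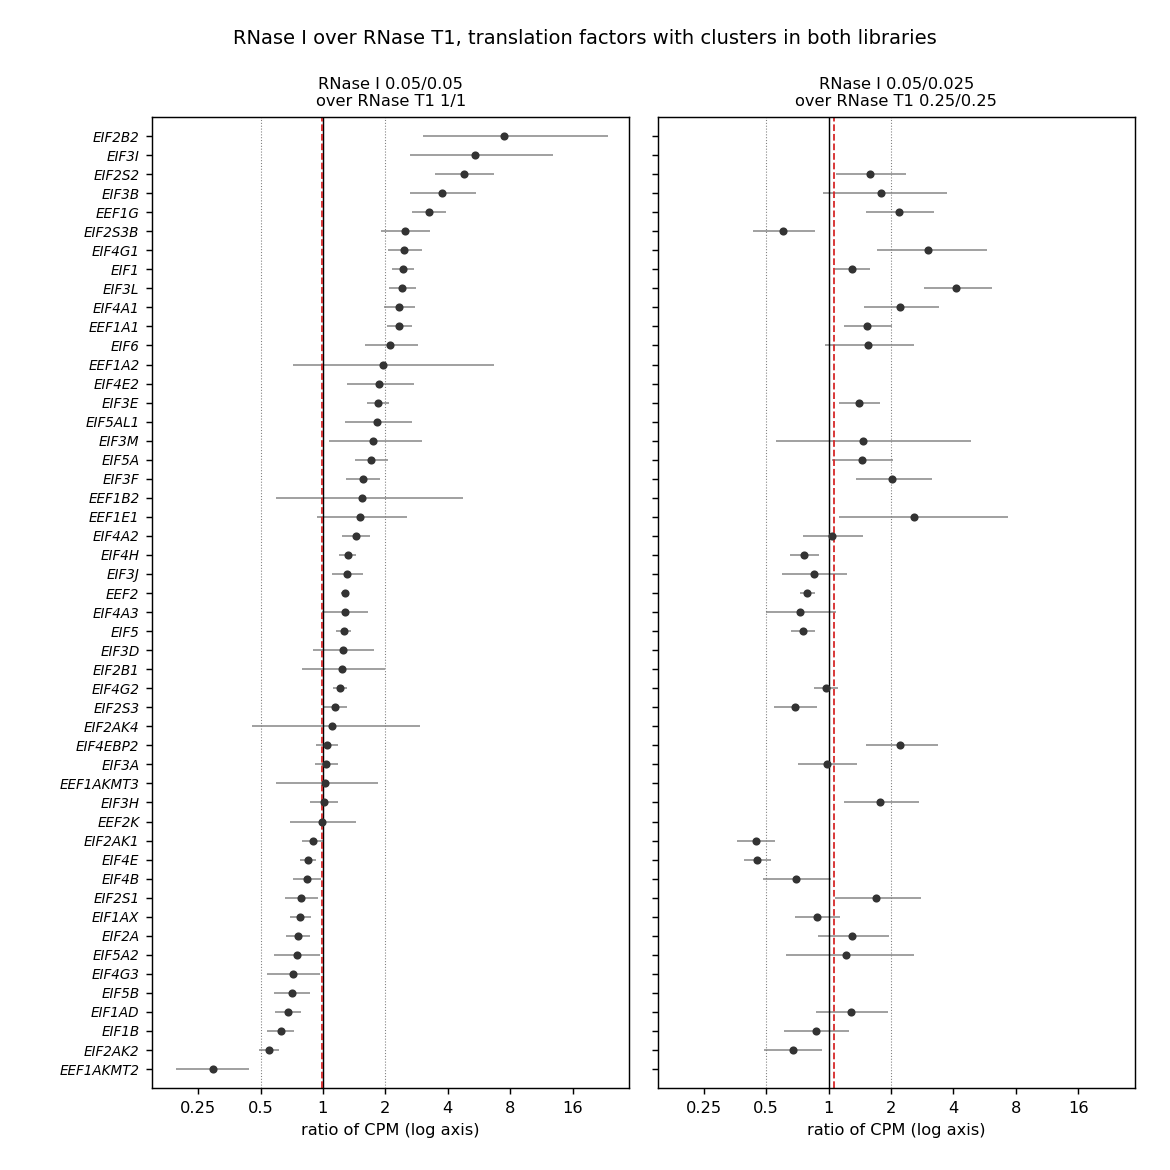
Ratio of CPM in RNase I over RNase T1 (horizontal log axis) for the 50 factors with clusters in both libraries of the first pair (left) and, where measured with 20 reads, in the second pair (right); bars are exact 95% counting intervals, the dashed line is the median of all protein-coding genes and dotted lines mark 0.5 and 2. Factors at the top exceed 2 on the left, and *EIF3L*, *EIF4G1*, *EIF4A1* and *EEF1G* exceed 2 on both sides.

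The highest ratios of the first pair belonged to *EIF2B2* (7.45, interval 3.05 to 23.6), *EIF3I* (5.39, 2.62 to 12.9), *EIF2S2* (4.78, 3.49 to 6.71) and *EIF3B* (3.74, 2.62 to 5.48). In the second pair *EIF2S2* had 1.58 (1.09 to 2.36) and *EIF3B* 1.78 (0.938 to 3.72), and the other 2 had fewer than 20 reads. The lowest were *EEF1AKMT2* (0.295, 0.195 to 0.441), *EIF2AK2* (0.549, 0.493 to 0.611), *EIF1B* (0.625, 0.537 to 0.729) and *EIF1AD* (0.680, 0.589 to 0.786). Of these *EIF2AK2* was also below 1 in the second pair (0.670, 0.488 to 0.932). *EIF1B* was at 0.867 (0.611 to 1.25) and *EIF1AD* at 1.28 (0.866 to 1.93), with intervals that held 1.

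Of 36 factors with a ratio in both pairs, 23 were on the same side of 1. *EEF1G* (3.24 and 2.18), *EIF4G1* (2.47 and 3.01), *EIF3L* (2.42 and 4.13) and *EIF4A1* (2.34 and 2.21) were 2 or higher in both, and none was 0.5 or lower in both. These counts over both pairs were not made for all protein-coding genes, so they do not show a trait of the factors. *EEF2* was at 1.28 (1.22 to 1.33) and 0.789 (0.729 to 0.855), on opposite sides of 1. *EIF4E* was at 0.846 and 0.452, and *EIF2AK1* at 0.893 and 0.446.

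As a description without a test, the base composition of the 3′UTR moved with the first ratio. Over 49 factors the log2 ratio and the G content of the canonical 3′UTR had Pearson's r = 0.54 and Spearman's rho = 0.63, and U content had r = -0.48 and rho = -0.51. C content had r = 0.37 and A content r = -0.34. Over 6681 protein-coding genes the values for G were 0.42 and 0.45. There C had r = 0.40, A r = -0.41 and U r = -0.39, so the relation was not particular to G. In the second pair, G gave r = 0.32 and rho = 0.30 over 37 factors. The share of reads in coding clusters of RNase I 0.05/0.05 gave r = 0.21 in the first pair and r = 0.40 in the second. These points share 2 libraries, and their base contents are not independent. The 4 factors with the highest ratios (*EIF2B2*, *EIF3I*, *EIF2S2* and *EIF3B*) had 22.7%, 24.3%, 23.3% and 29.5% G, and the 4 with the lowest (*EEF1AKMT2*, *EIF2AK2*, *EIF1B* and *EIF1AD*) had 19.0%, 19.1%, 15.3% and 21.4%.

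Counted together, CAUU and CAGU were about as common in factor clusters as in all clusters, but each alone differed in some libraries. Either tetramer was present in 56.0%, 57.5%, 56.7%, 42.8% and 49.2% of the 687, 440, 388, 481 and 183 factor clusters. The shares over all protein-coding genes, 58.5%, 60.6%, 59.6%, 42.6% and 51.1%, lay inside the factors' 95% intervals in each library (for RNase I 0.05/0.05 52.2% to 59.8%). Among clusters above 10 CPM in RNase I 0.05/0.05, 70.1% of 231 factor clusters (63.8% to 76.0%) and 84.3% of all clusters held either. In RNase I 0.1/0.025 these shares were 67.2% (61.0% to 72.9%) and 73.1%, so all clusters lay above the factors' interval in these 2 libraries. In the other 3 libraries they lay inside it, with 63.5% and 67.3%, 49.4% and 50.2%, and 49.2% and 51.1%. Taken apart, CAUU was in 35.5% of factor clusters (31.9% to 39.2%) in RNase I 0.05/0.05 and 35.7% (31.2% to 40.4%) in RNase I 0.1/0.025. For all genes these shares were 39.5% and 41.6%, above the intervals. CAGU was in 38.6% (34.9% to 42.3%) in RNase I 0.05/0.05, 16.2% (13% to 19.8%) in RNase T1 1/1 and 25.7% (19.5% to 32.6%) in RNase T1 0.25/0.25. For all genes these shares were 34.9%, 11.8% and 18.7%, below the intervals, the first only barely. In the remaining libraries the shares over all genes lay inside. RNase T1 cuts after G, which CAGU holds and CAUU does not, but whether this shaped the shares was not tested. Cluster length also differed between the enzymes. Within the 30 nt windows CAGU was present for 16%, 19.1%, 14.7%, 10.4% and 19.7% of factor clusters. Over all genes these shares were 15.8%, 16.9%, 16.5%, 8.22% and 12.3%. Only the last lay outside the factors' interval, below it (14.2% to 26.2%). Window shares for CAUU were 14.1%, 13.9%, 18.04%, 21.6% and 21.9% for the factors. For all genes they were 17.5%, 20.1%, 19.6%, 27.4% and 29.04%. The CAUU shares of all genes lay above the factors' interval in every library but RNase I 0.05/0.025, where the share lay inside.

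T-to-C conversion, the mark of a 4sU crosslink, was ordinary on the factors. For factors with at least 20 reads the median was 0.639, 0.644, 0.589, 0.522 and 0.571 events per read, against 0.640, 0.653, 0.616, 0.523 and 0.559 over all protein-coding genes. Several main RNase T1 1/1 clusters were lower and did not meet the conversion criterion. The *EIF4G2* cluster in exon 18, whose window is printed above, had 0.231 events per read over 156 reads, and the main clusters of *EIF5*, *EIF4E* and *EEF2* had 0.411, 0.465 and 0.497. These genes were targets of that library through other clusters.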

How the data were processed

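Infrared PAR-CLIP libraries were analyzed from the authors' PARalyzer cluster tables, 1 per condition. The authors trimmed reads with Trimmomatic 0.30 (18 to 45 nt), collapsed molecular identifiers with UMI-tools 1.1.1 and aligned with Bowtie 0.12.7 to GRCh38.p13 with up to 3 mismatches. PARalyzer settings are not given in the sources used here. The deposited values used are counts: reads, T-to-C conversion events and non-conversion events per cluster. The deposited mode score, a fraction, was not used. All 244645 cluster sequences were identical to hg38 at their position.

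Clusters were assigned to GENCODE 44 genes by same-strand exon overlap (1 nt), and reads were divided by the library's cluster reads (CPM). The genes and lists were chosen with earlier results of these data known. Features followed the order 3′UTR (stop codon included), coding sequence, 5′UTR; a cluster on several genes counted for each. Ratios used genes with 20 reads in the pair, with exact binomial intervals (scipy 1.17.1). Named genes are the 12 with the highest median CPM (the last place was a tie), the top gene of each role group, the 4 highest and lowest ratios, genes without clusters and paralogs; other genes were named after their values were seen, as were the RNase T1 sequences, which were added to the cluster with the most reads of each gene. The overlap code and the ratio rule were tested on simulated data. Alternatives covered the CPM, read and conversion criteria, gene assignment, thinning, scaling, feature order, pseudogenes and cluster extension.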

Additional observations from a re-analysis of the deposited data

How the results depend on the processing

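No paired analysis was possible because each condition had 1 library. Target counts stayed within 1.5 times the reported ones for thresholds of 5 and 20 CPM, 0.25 events per read, both other gene assignments and thinning to the smallest library, and for leaving out each library in the count over all 5 (chosen after seeing the data). With 20 reads per cluster, RNase T1 0.25/0.25 had 11 targets. Above 0.75 events per read the counts were 16, 24, 26 and 19 in the first 4 libraries. With converted over all T events above 0.5, 0 factors passed in any library. In the first enzyme pair, the count of 18 became 10 with 100 reads (18.3% over all genes) and 34 with converted clusters only (49.5%), and the count of 1 lower became 2 with 5 reads. In the second, the count of 10 of 40 became 6 of 32 with 100 reads (18.6% over all genes), 19 of 50 with 5 reads (53.9%) and 18 of 36 with converted clusters only (49.7%), so whether the factors were below all genes depended on the setting. Counting only genes with clusters in both libraries was chosen after seeing the data. With coding sequence first, the 3′UTR shares were 45.5%, 48.5%, 48.6%, 60.2% and 60.2% (all genes 68.6% to 85.5%). With canonical transcripts they were 70.1%, 74.7%, 71.9%, 78.2% and 84.1%, and without *EEF2* the first was 82.9%; the factors stayed below all genes each time. Factor reads of 14573, 16559, 17750, 11570 and 18318 CPM became 16092, 17667, 19384, 12245 and 19299 CPM with pseudogenes and 11526, 12956, 14189, 9182 and 13807 CPM without *EEF2*. Sites in all 5 libraries were 10 by reciprocal overlap. The share of clusters with either tetramer was 70.1%, 67.2%, 63.5% and 49.4% above 10 CPM in the first 4 libraries, where all genes had 84.3%, 73.1%, 67.3% and 50.2%, and 64.5%, 64.1%, 63.1%, 54.7% and 62.3% after extension by 10 nt. The cause of these changes was not tested, beyond the smaller number of genes or libraries each setting leaves. Depth limits RNase T1 0.25/0.25 most, where 183 clusters lay on factors.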
